A study of Mus musculus with 12 samples.

Results

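The genes described here are 10 chemokine genes of the mouse macrophage line RAW 264.7: Ccl2, Ccl7, Ccl3, Ccl4, Ccl5, Ccl6, Ccl9, Ccl22, Cxcl2 and Cxcl16. They were taken by name from a total of 35865 genes to which transcripts of the deposited quantification could be assigned, and 9 of the 10 had enough reads to be tested. RNA was sequenced from 12 libraries of RAW 264.7 cells that had been treated with extracellular vesicles (EVs) of MS-1 cells, a mouse endothelial line. All cells were kept in medium with EV-depleted serum and received 3 µg EV protein per ml for 48 h, so an untreated culture is not part of the comparison. In the ctrl-EVs group the vesicles had been electroporated with a premiR control, which according to the study's methods is a nematode sequence, cel-miR-67. In the miR-222-3p-EVs, miR-183-5p-EVs and miR-142-5p-EVs groups they had been electroporated with the mouse pre-miR of that name. According to the study's methods this was a double-stranded mimic of the mature miRNA. Each group had 3 libraries, numbered 1 to 3 in their titles. What a number stands for is not given. The study's methods speak in general of repeated experiments but do not say whether these libraries came from separate cultures, so the p-values below measure the spread between these libraries, which may be technical. The macrophages are 1 established line, and the mimic that reached them was not measured in these data.

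Chemokines are small secreted proteins that guide leukocytes by binding G-protein-coupled receptors, and macrophages are among their main sources. The CC chemokines Ccl2 and Ccl7 draw monocytes through Ccr2. Ccl3, Ccl4 and Ccl5 draw monocytes and T cells, and Ccl6 and Ccl9 are rodent chemokines that bind Ccr1. Ccl22 draws Ccr4-bearing T cells, Cxcl2 draws neutrophils through Cxcr2, and Cxcl16 is a ligand of Cxcr6 made as a membrane protein that can be shed. In stimulated macrophages many of these genes are induced together by NF-kappaB, and many of their mRNAs carry AU-rich elements, which shorten their life when bound by proteins of the Zfp36 family.

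The libraries held 16294611 to 22974853 estimated counts, and 3 counts corresponded to 0.131 to 0.184 CPM, which are counts scaled to a common library total. The macrophage identity was checked on 9 marker genes, of which 9 passed the filter, with a summed level of 860.0 to 1207 TPM (transcript abundance after correction for length and depth) over the libraries. Of 9 endothelial markers 5 passed the filter, with Egfl7 the highest at 10.1 to 26.2 TPM, Pecam1 at 2.36 to 4.14 and Cldn5 at 0 in all 12 libraries. Of 6 fibroblast markers Col1a1 passed (0.119 to 0.956 TPM) and Col3a1 was at 0, and of 5 lymphocyte markers Cd3g passed (0.254 to 1.74 TPM) and Nkg7 was at 0. The libraries numbered 2 stood apart from the others. They were the 4 shallowest, with 16294611 to 18927524 counts against 18990222 to 22974853, and mitochondrial genes held 4.85 to 5.38% of their counts against 3.45 to 4.59% elsewhere.

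The mature mouse miRNAs after which the groups are named are shown because their seeds define the sites sought below. They are printed from RefSeq (GRCm38.p6), 5′ to 3′, with the seed (bases 2 to 8), which pairs with target mRNAs, in capitals. The delivered molecules themselves are not printed and may differ from these forms in length. The 3 seeds differ from each other.
miR-142-5p: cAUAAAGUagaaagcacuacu
miR-183-5p: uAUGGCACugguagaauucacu
miR-222-3p: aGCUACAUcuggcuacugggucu

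Sequences complementary to these seeds were looked for in the chemokine mRNAs. The heptamer ACTTTAT pairs with the seed of miR-142-5p, the heptamer GTGCCAT with that of miR-183-5p, and the heptamer ATGTAGC with that of miR-222-3p. They were sought on the transcript strand of the 3′ UTR of the most abundant coding transcript of each gene. None of the 10 3′ UTRs held the miR-142-5p heptamer. Other 3′ UTRs held it in 1.94% (within the length of Ccl5) to 24.5% (within that of Ccl9), so its absence says little about these genes. Ccl22 held the miR-183-5p heptamer 1 time and Ccl6 held the miR-222-3p heptamer 1 time, and the other 8 genes held none. Of all 3′ UTRs at least as long, 11.2% held the miR-183-5p heptamer within the length of that of Ccl22 (1813 nt), and 6.35% held the miR-222-3p heptamer within that of Ccl6 (943 nt). Both sites are printed with 10 flanking bases on each side and the heptamer in capitals. The site of Ccl22 lies at chr8:94751521-94751547 on the plus strand and that of Ccl6 at chr11:83588383-83588409 on the minus strand (GRCm38). A match of letters does not show that a site is used.
Ccl22, miR-183-5p heptamer: tgcacctattGTGCCATgtgtcattgg
Ccl6, miR-222-3p heptamer: agtccactccATGTAGCcacaggactg

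Chemokine mRNA was dominated by Ccl3. With ctrl-EVs its level was 366 ± 106 TPM (SD, n = 3), which placed it at rank 294 among 20403 genes above 0. Ccl9 followed at 96.8 ± 39.1 TPM, then Ccl4 at 62.1 ± 14.9, Cxcl2 at 55.7 ± 38.1 and Ccl5 at 43.3 ± 15.2 TPM. Ccl2 stood at 11.1 ± 8.38 TPM. The neighbours Ccl9, Ccl4, Cxcl2 and Ccl5 overlapped within their SDs, whereas Ccl3 lay above all of them in every library. The remaining members were lower still, with 1.53 TPM for Ccl6, 1.37 for Ccl7, 0.311 for Cxcl16 and 0.193 for Ccl22. Ccl6 had 12 to 56 counts per library, whereas Ccl7, Cxcl16 and Ccl22 were near the limit of detection. Ccl7 had 0 to 24 counts per library, Cxcl16 0 to 17 and Ccl22 3 to 20, and Ccl22 was the member that was not tested, as it reached 10 counts in 1 library.

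Over all 12 libraries the 10 genes summed to between 416 and 847 TPM. Ccl3 held 56.2 to 70.8% of that sum. The sums split by title number rather than by treatment. They were 753 to 847 TPM in the number 1 libraries, 416 to 491 in number 2 and 703 to 726 in number 3, and these ranges did not overlap. By treatment the means were 639 ± 178 TPM with ctrl-EVs, 634 ± 191 with miR-222-3p-EVs, 680 ± 179 under miR-183-5p-EVs and 635 ± 164 under miR-142-5p-EVs (SD, n = 3), all within one another's spread. The mixture also changed with the number. Cxcl2 held 0.826 to 3.16% of the chemokine sum in number 2, against 6.44 to 8.61% in number 1 and 12.1 to 14.7% in number 3, while Ccl5 held 10.1 to 14.9% in number 2 against 3.57 to 5.22% in the others. The size of the fall in number 2 depends on the scale. Ccl3 had 275 ± 48.6 TPM in number 2 against 463 ± 33.9 in number 1 and 419 ± 8.56 in number 3 (SD, n = 4). Its normalized counts differed less, 2569 ± 540 against 3789 ± 265 and 3244 ± 264.

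**Figure D1:**
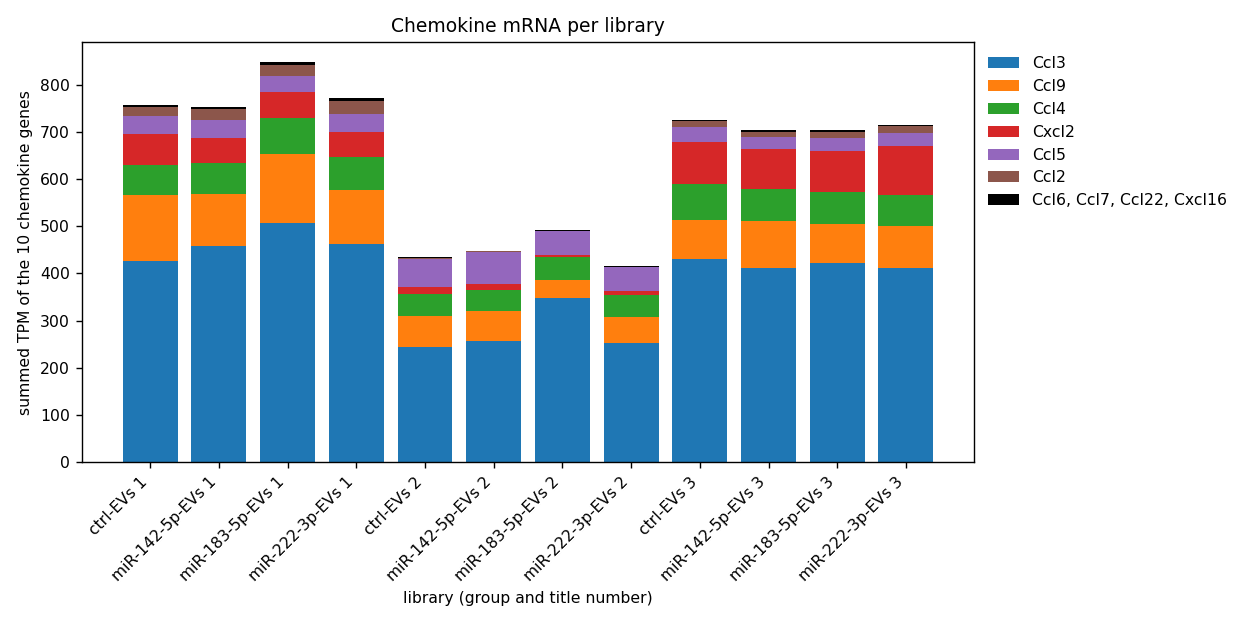
Stacked bars give the TPM of the chemokine genes in each of the 12 libraries, ordered by title number and then by group. The number 2 bars reach 416 to 491 TPM and the others 703 to 847, and the Cxcl2 segment is thin and the Ccl5 segment wide in number 2.

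The first comparison asked whether vesicles carrying a miRNA mimic changed chemokine mRNA relative to ctrl-EVs. No chemokine gene was called in any comparison of treatments. With miR-142-5p-EVs, 0 of the 9 tested members were called at an adjusted p under 0.05 (DESeq2 Wald test with Benjamini-Hochberg adjustment), where 0.00719% of all 13906 tested genes were called. The miR-222-3p-EVs comparison called 0 members and 0% of all genes, and so did that of miR-183-5p-EVs, with 0 members and 0%. In the comparison of all 9 miR-EVs libraries with ctrl-EVs 0 members and 0% of all genes were called, and in the likelihood ratio test among the 4 groups 0 members and 0.00719% of all genes. Unadjusted p values under 0.05 were reached by 0 of the 27 pairs of member and mimic, and the lowest was 0.477. Over all tested genes such p values numbered 231 for all miR-EVs, 138 for miR-183-5p-EVs, 101 for miR-222-3p-EVs and 73 for miR-142-5p-EVs. Each is far below a share of 0.05 of the 13906 genes. This fit leaves the differences between title numbers in its error, which makes it a strict test. In edgeR the quasi-likelihood test called 0 members and 0 genes in each comparison of treatments. The log2 fold changes lay between -0.78 and 0.39, with standard errors of 0.22 to 1.45.

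The title numbers paired the libraries, as same-numbered libraries deviated together from their group means. With the number as a block, standard errors shrank to 0.129 to 0.854 and 0 members were called, against 0.0647% of all genes with miR-222-3p-EVs, 0.41% under miR-183-5p-EVs and 0.0575% under miR-142-5p-EVs. The block gave 0 members and 1.6% of all genes for all miR-EVs against ctrl-EVs, and 0 members and 0.0863% of all genes for the test among groups. DESeq2 gave an adjusted p under the block for 18 of the 27 pairs of member and mimic (3 of 9 members under miR-222-3p-EVs, 6 under miR-183-5p-EVs, 9 under miR-142-5p-EVs) and for 5 of 9 members with all miR-EVs, and the others could not be called. The lowest unadjusted p of the 27 was 0.0663, for Cxcl2 with miR-183-5p-EVs. Its log2 fold change was -0.60 ± 0.32 (SE), with an adjusted p of 0.455 (DESeq2). The median absolute log2 fold change of the 9 members under the block was 0.21 with miR-222-3p-EVs, 0.26 under miR-183-5p-EVs and 0.11 under miR-142-5p-EVs, beside 0.12, 0.14 and 0.12 over all tested genes. A change below the width of these intervals could not be seen in this design, and the absence of a call does not show that levels were equal.

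Ccl2, the main monocyte attractant, spanned a wider range over the 12 libraries than any other tested member on the log2(normalized count + 1) scale. Its normalized count was 167.6, 19.0 and 119.4 in ctrl-EVs libraries 1, 2 and 3, and 200.6, 20.1 and 78.1 in the miR-142-5p-EVs libraries. It was 259.4, 8.63 and 110.1 in the miR-222-3p-EVs libraries, and 213.4, 5.87 and 103.1 in the miR-183-5p-EVs libraries. The number 2 library was by far the lowest of every group, and the groups overlapped. Against ctrl-EVs the log2 fold change was 0.31 ± 1.15 with miR-222-3p-EVs, 0.08 ± 1.15 under miR-183-5p-EVs and -0.03 ± 1.15 under miR-142-5p-EVs (SE). With the number as a block it was 0.0042 ± 0.34, -0.22 ± 0.34 and -0.11 ± 0.34 in the same order. Fold changes against ctrl-EVs here and below are from fits without the block unless it is named. Comparing only libraries of the same number, Ccl2 was higher with the mimic in 4 of 9 pairs. Each ctrl-EVs library serves in 3 of these pairs, so they are not 9 independent comparisons. The gene lies at chr11:82035571-82037453 (GRCm38, plus strand) and overlaps Gm17268 on the other strand. Ccl7, which lies next to it at chr11:82045712-82047525 and acts through the same receptor, had normalized counts of 9.38 to 24.0 in number 1, 0 to 1.17 in number 2 and 6.89 to 11.7 in number 3. It was higher with the mimic in 1 of 9 same-number pairs, which again share the ctrl-EVs libraries.

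Ccl3 and Ccl4 encode the chemokines formerly called MIP-1alpha and MIP-1beta and lie about back to back on chromosome 11, Ccl3 at chr11:83647844-83649355 on the minus strand and Ccl4 at chr11:83662584-83664683 on the plus strand. The normalized count of Ccl3 was 3508, 2167 and 3637 in ctrl-EVs libraries 1, 2 and 3, and 3672, 2361 and 3109 in the miR-142-5p-EVs libraries. It was 3847, 2382 and 3075 in the miR-222-3p-EVs libraries, and 4128, 3367 and 3158 in the miR-183-5p-EVs libraries. The number 2 library was the lowest in 3 of 4 groups, and in miR-183-5p-EVs the lowest was number 3. Ccl4 had the smallest spread of all members, with normalized counts of 424.5, 336.9 and 525.3 under ctrl-EVs, 470.3, 356.3 and 395.8 under miR-222-3p-EVs, 505.7, 384.5 and 408.6 under miR-183-5p-EVs, and 430.0, 343.9 and 423.9 under miR-142-5p-EVs. Against ctrl-EVs, Ccl3 differed by -0.0013 ± 0.27, 0.19 ± 0.27 and -0.03 ± 0.27 and Ccl4 by -0.07 ± 0.22, 0.013 ± 0.22 and -0.10 ± 0.22 (log2 fold change ± SE, for miR-222-3p-EVs, miR-183-5p-EVs and miR-142-5p-EVs). Within title numbers, both genes were higher with each mimic in numbers 1 and 2 and lower with each in number 3, where these 3 ratios share the ctrl-EVs 3 library.

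Ccl5, the T cell attractant also named RANTES (chr11:83525778-83530518, minus strand), stood higher in number 2, unlike the other members called there. Its normalized count was 189.9, 320.1 and 157.1 in ctrl-EVs libraries 1, 2 and 3, and 188.9, 366.0 and 113.2 in the miR-142-5p-EVs libraries. It was 185.7, 282.1 and 124.8 in the miR-222-3p-EVs libraries, and 164.2, 287.9 and 116.7 in the miR-183-5p-EVs libraries. Here the number 2 library was the highest of every group and number 3 the lowest. The log2 fold change against ctrl-EVs was -0.17 ± 0.50 with miR-222-3p-EVs, -0.23 ± 0.50 under miR-183-5p-EVs and 0.00093 ± 0.50 under miR-142-5p-EVs (SE). With the block the standard error fell to 0.17 and the differences were -0.18, -0.26 and -0.074, none of which was called. Ccl5 was higher with the mimic in 1 of 9 same-number pairs, which share the ctrl-EVs libraries and are not independent.

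Among the Ccr1 ligands, Ccl9 (chr11:83572919-83578636, minus strand) had normalized counts of 2411, 1213 and 1481 in ctrl-EVs libraries 1, 2 and 3, and 1871, 1206 and 1549 in the miR-142-5p-EVs libraries. It had 1974, 1056 and 1353 in the miR-222-3p-EVs libraries, and 2466, 782.6 and 1269 in the miR-183-5p-EVs libraries. Number 1 was the highest and number 2 the lowest in all 4 groups. The mimic library was the higher in 2 of 9 same-number pairs, which share the ctrl-EVs libraries and are not independent. Its neighbour Ccl6 (chr11:83587882-83593087, minus strand, overlapping E230016K23Rik on the other strand) had 12.1 to 48.5 normalized counts with overlapping groups. Among the 9 tested members Ccl6 held the largest positive log2 fold change, 0.39 ± 0.55 (SE) with miR-183-5p-EVs. Under miR-222-3p-EVs, whose heptamer its 3′ UTR holds, it differed by 0.29 ± 0.56 (SE).

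Cxcl2 (chr5:90903871-90905938, plus strand), the neutrophil attractant, had normalized counts of 894.7, 203.3 and 1245 in ctrl-EVs libraries 1, 2 and 3, and 683.2, 199.7 and 1072 in the miR-142-5p-EVs libraries. It had 747.8, 135.0 and 1303 in the miR-222-3p-EVs libraries, and 739.2, 65.5 and 1107 in the miR-183-5p-EVs libraries. In all 4 groups the order was number 3 above number 1 above number 2. The log2 fold changes against ctrl-EVs were -0.10 ± 1.08, -0.29 ± 1.08 and -0.26 ± 1.08 (SE, for miR-222-3p-EVs, miR-183-5p-EVs and miR-142-5p-EVs). With the number as a block they were -0.26 ± 0.32, -0.60 ± 0.32 and -0.20 ± 0.32 in the same order, none of them called. The mimic library was the higher in 1 of 9 same-number pairs, which share the ctrl-EVs libraries and are not independent. The miR-183-5p-EVs library of number 2 had the lowest Cxcl2, Ccl9 and Ccl2 of all 12 and the highest Ccl3 of the number 2 libraries.

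The remaining members gave little to compare. Cxcl16, the transmembrane chemokine (chr11:70453983-70459984, minus strand, overlapping Zmynd15 on the other strand), ranged from 0 to 16.2 normalized counts. Ccl22 (chr8:94745590-94751699, plus strand), whose 3′ UTR holds the miR-183-5p heptamer, had normalized counts of 8.25, 9.16 and 7.40 under miR-183-5p-EVs, and of 4.98, 6.96 and 5.66 under ctrl-EVs, in libraries 1, 2 and 3. The mimic library was the higher in 3 of 3 pairs with miR-183-5p-EVs and in 2 of 3 with each of the mimics whose heptamer it lacks, and miR-142-5p-EVs library 1 held the highest count, 17.7. Without the low-count filter the log2 fold change was 0.49 ± 0.71 (SE, 95% interval -0.91 to 1.89) with miR-183-5p-EVs and 0.93 ± 0.70 (-0.45 to 2.30) with miR-142-5p-EVs, so a change of either sign was within the error.

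**Figure D2:**
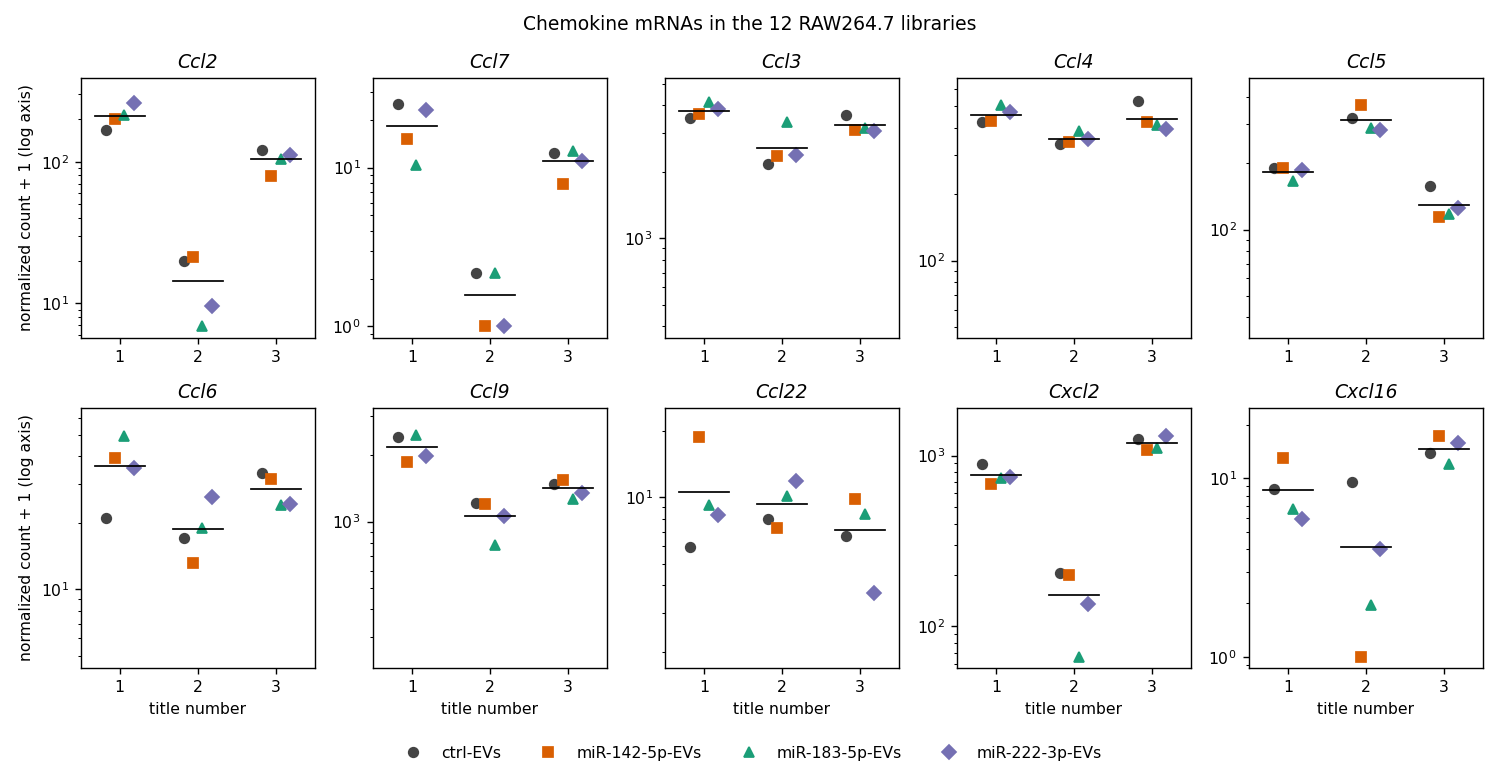
Each panel shows the normalized count plus 1 of 1 chemokine gene on a log axis against the title number, with symbols for the 4 groups and a bar at the mean of the 4 libraries of a number. Ccl2, Ccl7 and Cxcl2 drop and Ccl5 rises in number 2. In number 3 the ctrl-EVs library is the highest for Ccl2, Ccl3, Ccl4, Ccl5 and Ccl6, and a library of another group is the highest for the other members.

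The second comparison set the title numbers against each other, 4 libraries each, with the treatment kept in the model. Its p-values measure the spread of libraries within a number. As what a number stands for is not given, they do not show how independent cultures would vary. The libraries of number 2 had less mRNA of most chemokines. Against number 1, 8 of 9 members were called, 7 lower and 1 higher, where 57.9% of all genes were called, 29.9% lower and 28% higher. Against number 3, 8 were called, 7 lower and 1 higher, beside 61.8% of all genes, 31% lower and 30.7% higher. Number 3 against number 1 gave 3 called members, all lower, and 0 higher, beside 23.4% of all genes, 12.9% lower and 10.5% higher. The likelihood ratio test over the 3 numbers called 8 of 9 members and 69.4% of all genes. Calls were thus common over all genes and a count of called members says little. The sizes were larger, but the members were chosen with earlier results of these data known, so this only describes them. The median absolute log2 fold change of the members was 1.05 for number 2 against 1, 1.30 for number 2 against 3 and 0.63 for number 3 against 1, beside 0.45, 0.49 and 0.21 over all tested genes. Normalized counts of all 4 number 2 libraries lay below those of the 8 others for 5 members, Ccl2, Ccl7, Ccl4, Ccl9 and Cxcl2, and above them for 1, Ccl5, where 21% and 20.2% of all genes did so.

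Ccl2, Ccl7 and Cxcl2 fell most in number 2. Ccl2 was 15.8-fold lower than in number 1 (log2 fold change -3.98 ± 0.33, SE, adjusted p = 5.31e-31, DESeq2) and 7.67-fold lower than in number 3 (-2.94 ± 0.34, adjusted p = 3.53e-17). Its mean normalized count was 210.3 ± 38.0 in number 1, 13.4 ± 7.22 in number 2 and 103 ± 17.7 in number 3 (SD, n = 4). Ccl7 had 2 counts in all 4 number 2 libraries together, against 75 in number 1 and 44 in number 3. As a ratio of counts over library totals, this is 0.0328 to number 1 (95% interval 0.00390 to 0.123) and 0.0537 to number 3 (0.00630 to 0.206), intervals that cover counting error only. Cxcl2 was 5.31-fold lower than in number 1 (-2.41 ± 0.28, adjusted p = 2.97e-16, DESeq2) and 8.22-fold lower than in number 3 (-3.04 ± 0.28, adjusted p = 2.11e-25).

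Ccl9, Ccl3, Ccl4, Ccl5 and Ccl6 changed less and not in 1 direction. Ccl9 was 2.07-fold lower in number 2 than in number 1 (log2 fold change -1.05 ± 0.13, SE, adjusted p = 1.52e-14, DESeq2) and 1.34-fold lower than in number 3 (-0.42 ± 0.13, adjusted p = 0.00328). Ccl3 was 1.49-fold lower than in number 1 (-0.57 ± 0.11, adjusted p = 1.37e-06) and 1.28-fold lower than in number 3 (-0.35 ± 0.11, adjusted p = 0.00336). Ccl4 differed from numbers 1 and 3 by -0.37 ± 0.13 and -0.30 ± 0.13 (adjusted p = 0.00900 and 0.0318). Ccl5 was instead 1.72-fold higher than in number 1 (0.78 ± 0.15, adjusted p = 4.85e-07) and 2.45-fold higher than in number 3 (1.30 ± 0.15, adjusted p = 1.20e-16). Ccl6 differed by -0.98 ± 0.41 from number 1 (adjusted p = 0.0281) and by -0.65 ± 0.41 from number 3 (adjusted p = 0.160). Cxcl16, with 9 counts in the number 2 libraries together against 35 and 58, differed by -1.51 ± 0.81 from number 1 (adjusted p = 0.0990) and by -2.38 ± 0.80 from number 3 (adjusted p = 0.00555).

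The calls of Ccl6, Ccl4 and Cxcl16 in number 2 were lost when some single libraries were left out. Ccl6 in number 2 against 1 lost its call without ctrl-EVs 2, miR-142-5p-EVs 1 or 2, miR-183-5p-EVs 1 or 2, or miR-222-3p-EVs 1 (log2 fold change -0.75 to -1.04, adjusted p = 0.0595 to 0.186, DESeq2). Ccl4 lost its call against number 1 without ctrl-EVs 2, miR-183-5p-EVs 1 or miR-222-3p-EVs 1 (-0.31 to -0.33, adjusted p = 0.0576 to 0.0686). Against number 3 it lost its call without ctrl-EVs 2 or 3, miR-142-5p-EVs 2 or 3, miR-183-5p-EVs 2 or miR-222-3p-EVs 2 (-0.18 to -0.33, adjusted p = 0.0503 to 0.215). Cxcl16 lost its call against number 3 without miR-142-5p-EVs 2 (-1.82, adjusted p = 0.0503) and moved to -3.31 without ctrl-EVs 2, which also brought a call against number 1 (-2.46, adjusted p = 0.0313). The calls of Ccl2, Ccl7, Ccl3, Ccl5, Ccl9 and Cxcl2 in number 2 against numbers 1 and 3 held without each of the 12 libraries.

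Numbers 3 and 1 were closer to each other. Ccl2 was 2.05-fold lower in number 3 (log2 fold change -1.04 ± 0.26, SE, adjusted p = 0.000882, DESeq2), Ccl9 1.55-fold lower (-0.63 ± 0.13, adjusted p = 2.29e-05) and Ccl5 1.43-fold lower (-0.51 ± 0.15, adjusted p = 0.00623). The Ccl5 call was lost without miR-142-5p-EVs 3 (-0.41, adjusted p = 0.0850) or miR-222-3p-EVs 1 (-0.47, adjusted p = 0.0655). Cxcl2 had the larger value in number 3, by 0.63 ± 0.28 (adjusted p = 0.0843), and it was called without miR-142-5p-EVs 2 or 3 or miR-183-5p-EVs 1 or 2 (adjusted p = 3.93e-06 to 0.00572). Ccl3, at -0.22 ± 0.11, was called without ctrl-EVs 3 (-0.33, adjusted p = 0.00475) or miR-183-5p-EVs 2 (-0.22, adjusted p = 0.0484), and 5 members were called without miR-183-5p-EVs 2.

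**Figure D3:**
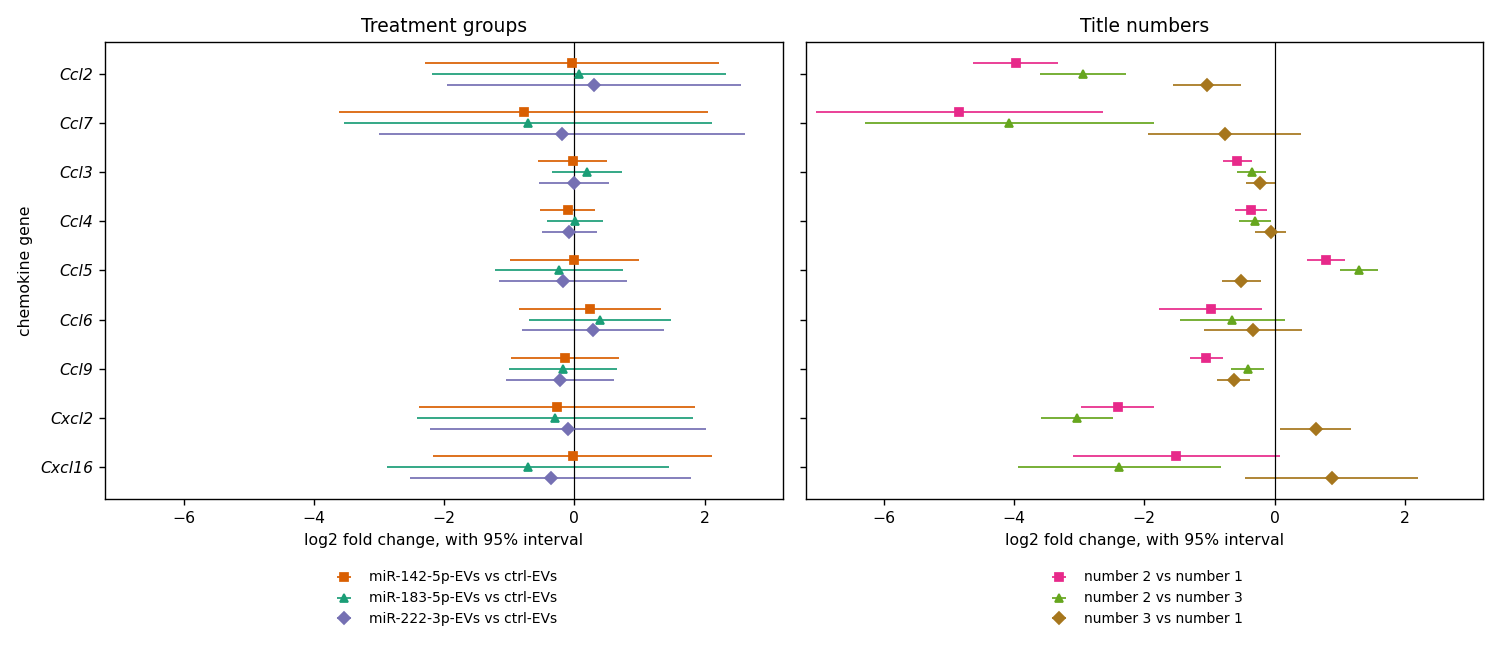
Points show log2 fold changes of the 9 tested chemokine genes with 95% intervals, on the left for each mimic against ctrl-EVs and on the right between title numbers. All intervals on the left, from the fit without the number as a block, include 0. On the right Ccl2, Ccl7 and Cxcl2 lie far below 0 and Ccl5 above 0 for number 2.

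The variation among libraries was also divided between the title number and the treatment. Of the sum of squares of log2(normalized count + 1), the title number held 93.7% for Ccl2, 93.1% for Ccl5, 92.0% for Cxcl2 and 91.8% for Ccl7, then 83.6% for Ccl9, 69.1% for Ccl3, 64.3% for Ccl4, 62.0% for Cxcl16 and 54.3% for Ccl6. The median over all tested genes was 69.5%. The treatment group held 7.97% in that median. Ccl2 spanned 5.24 log2 units over the 12 libraries, Ccl7 4.64 and Cxcl2 4.29, against 0.64 for Ccl4.

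**Figure D4:**
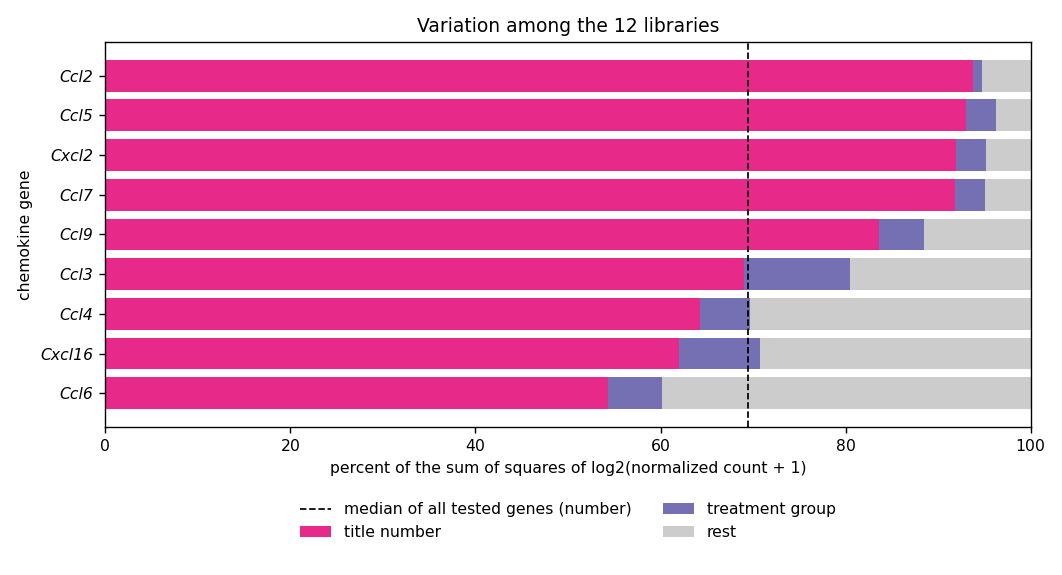
Bars divide the sum of squares of log2(normalized count + 1) over the 12 libraries into the share of the title number, the treatment group and the rest, for each tested chemokine gene. The number holds 54.3 to 93.7%, and the dashed line marks 69.5%, the median of all tested genes.

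AU-rich elements differed among these mRNAs. The pentamer ATTTA was counted on the transcript strand, overlapping copies included, in the 3′ UTR of each member's most abundant coding transcript. Cxcl2 held 11 copies in 734 nt, as many as were found within that length in 0.0653% of the 12242 3′ UTRs at least as long. Ccl3 held 5 copies in 409 nt, a number reached by 0.703% of 15227. Of the others, Ccl6 held 4 (reached by 15.1%), Ccl4 2 (11.0%), Ccl7 2 (18.4%), Ccl2 1 (31.4%), Ccl9 5 (45.8%), Cxcl16 2 (61.6%) and Ccl22 2 (72.3%), each share taken within that gene's 3′ UTR length. Ccl5 held 0 within its 199 nt, a length within which 22.6% of 3′ UTRs hold at least 1 copy. The densest 30 bases of the Cxcl2 3′ UTR, at chr5:90905327-90905356 on the plus strand (GRCm38), are shown with the pentamers in capitals, as the kind of site that Zfp36 proteins recognize.
Cxcl2, AU-rich stretch: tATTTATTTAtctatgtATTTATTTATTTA

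The genes for proteins that act on such elements or on the chemokines themselves also differed between numbers. Of 8 genes in this list 7 were tested, and 4 were higher and 2 lower in number 2 than in number 1, and likewise 4 higher and 2 lower than in number 3, beside 57.9% and 61.8% of all genes called. Their median log2 fold changes were 0.37 and 0.27, beside 0.0075 and 0.0088 over all tested genes. Zfp36l1 was at 63.1 ± 5.59 TPM in number 1, 112 ± 12.9 in number 2 and 42.1 ± 6.33 in number 3 (SD, n = 4), and its log2 fold change in number 2 was 1.01 ± 0.11 against number 1 and 1.69 ± 0.11 against number 3 (SE). Elavl1, which stabilizes AU-rich mRNAs, was also higher, by 0.37 ± 0.09 and 0.47 ± 0.09. Adam17, a sheddase of Cxcl16, was lower, by -0.70 ± 0.06 and -0.81 ± 0.06. Adam10, the other sheddase, was lower than in number 1 (-0.48 ± 0.08) and higher than in number 3 (0.27 ± 0.08), although its TPM in numbers 2 and 3 were alike, 130.2 ± 10.5 and 130.0 ± 13.5. Zfp36 and Zfp36l2 were named after their values were seen. Zfp36 was at 22.8 ± 1.38, 44.3 ± 7.03 and 18.4 ± 2.09 TPM in numbers 1, 2 and 3, a log2 difference of 1.14 ± 0.13 and 1.53 ± 0.13 in number 2. Zfp36l2 stood at 27.4 ± 2.37, 32.5 ± 2.17 and 48.4 ± 2.04 TPM, and was higher in number 2 than in number 1 (0.43 ± 0.10) but lower than in number 3 (-0.31 ± 0.10). Whether these levels bear on those of the chemokines was not tested.

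In the comparisons with number 2 the receptors of the chemokines were called about as often as other genes. Of 22 receptor genes 14 were tested, and in number 2 against number 1 there were 4 higher and 4 lower, beside 57.9% of all genes called. Against number 3 there were 3 higher and 4 lower, beside 61.8% of all genes. Ccr2, the receptor of Ccl2 and Ccl7, and Cxcr2, the receptor of Cxcl2, were not called, at 1.55 ± 0.276 and 2.02 ± 0.407 TPM in number 2 against 1.46 ± 0.191 and 2.72 ± 0.173 in number 1 (SD, n = 4). Cxcr3 was lower in number 2, at 0.821 ± 0.263 TPM against 6.14 ± 0.275 in number 1 and 5.33 ± 0.314 in number 3 (SD, n = 4), with log2 fold changes of -2.74 ± 0.26 and -2.45 ± 0.26 (SE). Cxcr5 and Ccr6 were lower too, by -2.04 ± 0.40 and -1.92 ± 0.74 against number 1. Ccr9, the receptor of Ccl25, was higher than in number 1, by 0.75 ± 0.27, and Cx3cr1, the fractalkine receptor, was higher than in number 3, by 1.56 ± 0.35. Ccr1, the receptor of Ccl3, Ccl5, Ccl6 and Ccl9, named here after its values were seen, fell from 0.744 ± 0.200 TPM in number 1 to 0.120 ± 0.0801 in number 2, at a level of few reads. Number 3 against number 1 gave 1 call among the 14 tested, lower, in Cx3cr1, beside 23.4% of all genes.

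Other chemokines were few in these cells. Of 27 further chemokine genes 5 passed the filter, Ccl24, Ccl25, Cxcl10, Cxcl11 and Cx3cl1. Ccl25, known from thymus and gut, was the most abundant, at 16.6 ± 4.10 TPM in number 1, 19.5 ± 3.62 in number 2 and 32.1 ± 3.48 in number 3 (SD, n = 4). In number 2 against number 1, Ccl25 and Cx3cl1 were higher (log2 fold change 0.43 ± 0.15 and 1.03 ± 0.37, SE) and Cxcl11 was lower (-1.17 ± 0.48), beside 57.9% of all genes called. Against number 3, 0 of the 5 were higher and 1 was lower in number 2, beside 61.8% of all genes. Number 3 against number 1 gave 2 higher and 0 lower, beside 23.4% of all genes. Cxcl10 lay between 5.35 and 10.4 TPM and was not called. Cxcl1 and Cxcl3, the close relatives of Cxcl2, did not pass the filter, with mean levels of 0.0137 and 0.315 TPM. None of the receptor, decay or other chemokine genes was called in a comparison of treatments.

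Macrophage markers also differed between numbers, 5 of 9 against number 1 and 7 of 9 against number 3. Their summed level was 860.0 to 902 TPM in number 2 against 1079 to 1207 in the other libraries. The median log2 fold change of the list, on normalized counts, was -0.095 against number 1 and -0.24 against number 3. Over all tested genes it was 0.0075 and 0.0088. Against number 1, 1 marker was higher and 4 were lower, beside 57.9% of all genes called. Cd14, the co-receptor for endotoxin, differed by -1.35 ± 0.11, Csf1r, the receptor for macrophage colony-stimulating factor, by -1.63 ± 0.15, Spi1, the lineage transcription factor PU.1, by -0.89 ± 0.13 and Cd68 by 0.34 ± 0.10 (log2 fold change ± SE). Against number 3, 2 were higher and 5 lower, beside 61.8% of all genes. The endothelial markers were listed because endothelial cells made the vesicles. Their sum was 15.0 to 17.7 TPM in number 2 against 25.6 to 34.1 elsewhere, most of it Egfl7 (-0.72 ± 0.18 against number 1). Of the 5 tested, 3 were lower and 0 higher in each of the comparisons with number 2. Whether these reads came from the vesicles or from the macrophages was not tested. Of the fibroblast and lymphocyte lists 1 gene each was tested and 0 were called. The part of these markers, of depth and of mitochondrial share in the chemokine differences was not tested, and fewer cells of a state and less RNA per cell cannot be told apart in bulk libraries.

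**Figure D5:**
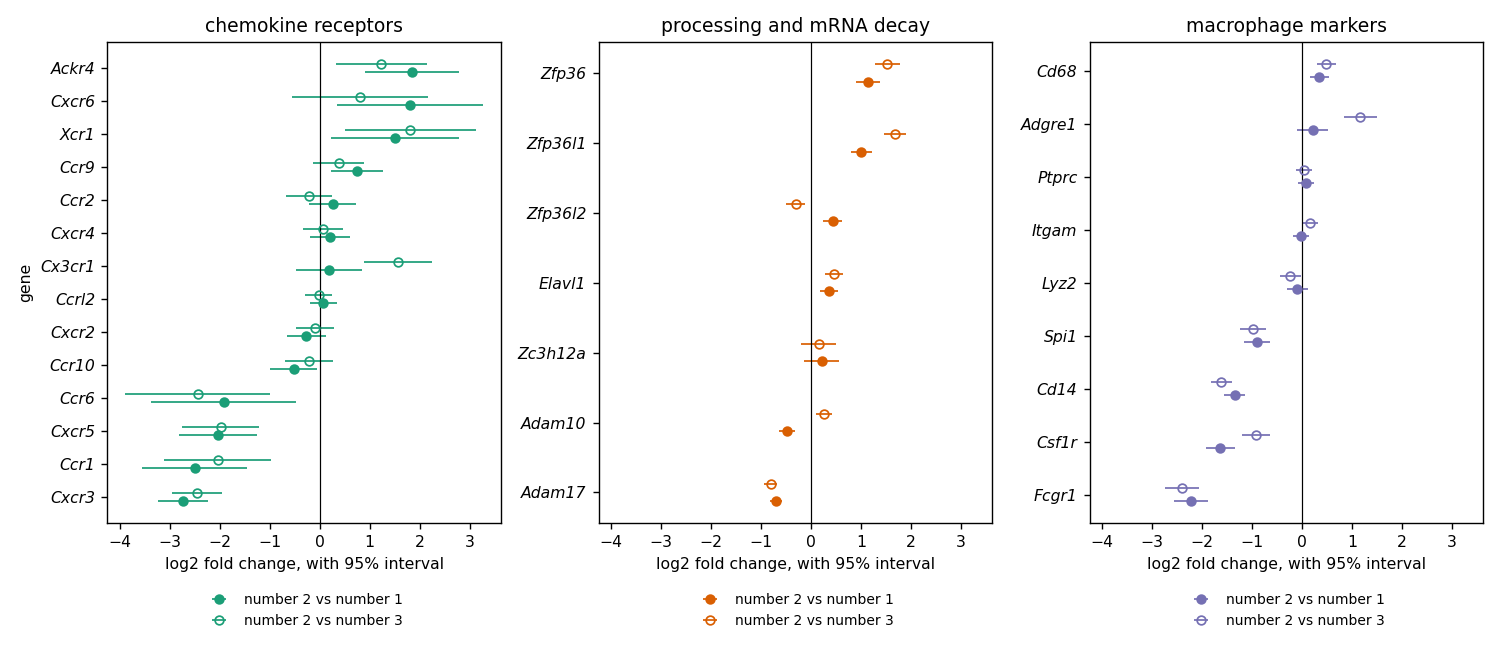
Points give log2 fold changes with 95% intervals for number 2 against number 1 (filled) and against number 3 (open), for chemokine receptors, for genes of chemokine processing and mRNA decay and for macrophage markers. Zfp36 and Zfp36l1 lie above 0 in both comparisons, and Cxcr3, Cd14 and Csf1r below 0 in both.

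Some genes followed the most variable chemokines across the 12 libraries. Tested genes whose mean normalized count reached 50 were compared. The measure was the mean absolute difference of their log2(normalized count + 1), each centred on its mean, so that 0 is an identical pattern. Ccl2 was followed by Gpr84, a fatty acid receptor, at 0.340, by Clec5a, a myeloid lectin, at 0.391 and by Arl11 at 0.443. Mean normalized counts of Gpr84 were 512.8, 46.0 and 403.2 in numbers 1, 2 and 3, and those of Clec5a 1139, 135.4 and 823.6. Ccl7 was followed by the receptor gene Cxcr3 at 0.440, by Arl11 at 0.443 and by Zfp93 at 0.449. Cxcl2 was followed most closely, by Rtp4 at 0.109, with 540.8, 100.7 and 722.9 normalized counts in numbers 1, 2 and 3, then by the pseudogene Gm2619 at 0.195 and by Nxpe4 at 0.197. These values describe 12 libraries that share 3 numbers.

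Promoters were available for 5 members, Cxcl2, Ccl22, Ccl9, Ccl6 and Ccl3, in the RefSeq table (GRCm38.p6, 250 bases before to 50 after the gene start). Ccl2, Ccl7, Ccl4, Ccl5 and Cxcl16 had no entry. A kappaB consensus, sought on both strands, was found in Cxcl2 and Ccl9, 2 of 5 members, and in 4.51% of 32851 promoters. The AP-1 motif TGANTCA, on both strands, was found in Ccl9, 1 of 5, and in 7.81% of all. The motif GAAANNGAAA of interferon-responsive genes, on both strands, was found in 0 of 5 and in 3.44% of all, and TATAAA, on the gene's strand, in 1 of 5, Ccl9, and in 8.32% of all. The kappaB match of Cxcl2 begins at -97 from the gene start and, being nearly the same on both strands, was matched 2 times with overlap. The promoters of Cxcl2, the member with the widest change among the abundant ones, and of Ccl3, the most abundant, are printed 5′ to 3′ on the gene's strand, with matches in capitals. Cxcl2 is at chr5:90903649-90903948 (plus strand) and Ccl3, without a match, at chr11:83649329-83649628 (minus strand).
Cxcl2 promoter: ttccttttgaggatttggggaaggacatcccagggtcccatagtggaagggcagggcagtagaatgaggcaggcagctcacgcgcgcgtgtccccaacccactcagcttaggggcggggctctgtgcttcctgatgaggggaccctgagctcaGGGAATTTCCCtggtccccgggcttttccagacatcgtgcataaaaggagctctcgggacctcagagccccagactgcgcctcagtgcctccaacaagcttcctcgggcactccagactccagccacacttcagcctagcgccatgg
Ccl3 promoter: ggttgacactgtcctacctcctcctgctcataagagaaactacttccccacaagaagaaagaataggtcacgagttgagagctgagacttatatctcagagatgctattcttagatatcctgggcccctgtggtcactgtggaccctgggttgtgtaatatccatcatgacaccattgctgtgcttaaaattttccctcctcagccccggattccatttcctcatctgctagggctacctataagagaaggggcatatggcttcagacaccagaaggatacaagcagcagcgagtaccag

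The transcripts behind the gene values were mixed for some members. Ccl3, Ccl4 and Ccl7 have a single listed transcript. For Ccl9 a short noncoding transcript (398 nt) held 55.5 to 68.1% of the gene's TPM, with 66.2 to 340.1 estimated counts per library, although the coding transcript (3006 nt) held 723 to 2249. The TPM of Ccl9 thus rests largely on few reads given to a short transcript, and its place in the order of levels depends on that split. For Cxcl2 the main coding transcript (1109 nt) held 60.1 to 90.5%, and the longer of its retained-intron transcripts (2066 nt) held 9.19 to 20.1% in number 1, 5.43 to 7.04% in number 2 and 6.76 to 8.82% in number 3. With the other retained-intron transcript (397 nt) added, the shares were 26.8 to 36.2% in number 1, 7.04 to 33.3% in number 2 and 18.0 to 27.7% in number 3, and these ranges overlapped.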

How the data were processed

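RNA of 12 RAW 264.7 libraries (TruSeq Stranded mRNA) was quantified by the authors with Salmon. The deposited tables give estimated counts, TPM and effective lengths per transcript. The annotation release is not the same in all sources used here, and strand and mapping settings are not given in them. Transcripts were matched to GENCODE vM21 (GRCm38). Of 118783 transcripts 116622 matched (98.2%), and the others held 0.605 to 0.707% of the counts. Estimated counts were summed to genes and rounded, with an average-length offset, and 13906 genes that reached 10 counts in 3 or more libraries were kept. Depth was 16294611 to 22974853 counts per library, and intervals on counts cover counting error only. DESeq2 1.42.0 in R 4.3.3 fitted the treatment group over all 12 libraries, and group with title number for the comparison of numbers, with calls at a Benjamini-Hochberg adjusted p under 0.05 over all tested genes. edgeR 4.0.16 was an alternative, as were other normalizations, filters, length and GC trends, the number as a block and leaving out each library. The numbers paired the libraries, since deviations from the group means correlated in all 18 same-numbered pairs (Pearson r over 13906 genes 0.409 to 0.797, mean 0.608). The scripts were tested on simulated data. Normalized counts are those of DESeq2 with the length offset. The 10 members, and the lists, were chosen with earlier results of these data known. All members are named, and of the lists the called genes with the highest mean TPM, at most 4 a list and comparison. Counts of a gene and of a partner on the other strand may be mixed where strand was not used. The premiR control was not analysed as a sequence here. One gene of the receptor list is not reported here.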

Additional observations from a re-analysis of the deposited data

Results flagged for a closer look

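Within the 4 libraries of 1 title number, 2 of 30 values tested stood apart from the other 3 by Dixon's criterion at the 95% level, where chance flags about 1 in 20. Ccl3 was highest in ctrl-EVs 3, at 3637 normalized counts against 3075 to 3158 in the other number 3 libraries. Ccl5 was lowest in miR-183-5p-EVs 1, at 164.2 normalized counts against 185.7 to 189.9 in the other number 1 libraries.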

How the results depend on the processing

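In the comparisons of treatments, 0 members were called under all alternatives run, including the replicate block, where DESeq2 gave some members no adjusted p, and leaving out each library. The number of genes called over the whole table did depend on the fit. With the replicate block it rose from 0, 0, 1, 0 and 1 to 9, 57, 8, 223 and 12 (miR-222-3p-EVs, miR-183-5p-EVs, miR-142-5p-EVs, all miR-EVs and the test among groups), to 18, 77, 15, 292 and 28 with the block and a GC trend, and to 5, 41, 7, 128 and 13 with the block and a gene-length trend. edgeR called 0 genes with and without the block, where 986, 1491, 893, 1868 and 691 genes with the block and 66, 92, 63, 166 and 38 without it had an unadjusted p under 0.05. Chosen after seeing the data, the block gave 6, 33, 3, 155 and 4 genes without the length offset, 20, 52, 19, 206 and 13 without the low-count filter, and 21, 13, 27, 529 and 38 without the 4 libraries of number 2. Leaving out 1 library gave 0 to 3 genes in these comparisons. For the numbers, members called ranged from 2 to 5 for number 3 against 1 over left-out libraries (5 without miR-183-5p-EVs 2), from 6 to 8 for number 2 against 1 and against 3 and from 6 to 9 for the test over the numbers. Genes called for number 3 against 1 fell from 3253 to between 1899 and 2086 without miR-142-5p-EVs 1, miR-183-5p-EVs 3, miR-222-3p-EVs 1 or miR-222-3p-EVs 3. Some calls changed with the processing. Ccl6 in number 2 against 1 was lost with a gene-length trend (-0.80, adjusted p = 0.0779, DESeq2), Ccl4 in number 2 against 3 without the length offset (-0.24, adjusted p = 0.0689) and with a GC trend (-0.26, adjusted p = 0.0577), and Cxcl2 in number 3 against 1 was gained with edgeR (adjusted p = 0.0279) and without the low-count filter (adjusted p = 0.00641).

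None of the differences between treatments that changed sign was called under either setting. With miR-142-5p-EVs, the log2 fold change of Ccl5, 0.00093 in the model without a block, became -0.074 with the replicate block, -0.085 with the block in edgeR, -0.020 and -0.058 with the block and a gene-length or GC trend, -0.065 with the block when the length offset was dropped, -0.077 with it and no low-count filter, -0.23 with it and no number 2 libraries, -0.0055 with edgeR, -0.0051 with TMM factors and -0.0017 without the low-count filter. Cxcl16 became 0.27 without the length offset and 0.50 with the block and no number 2 libraries, and Ccl3 became 0.056 with the block and a gene-length trend. With miR-183-5p-EVs, Ccl2 became -0.22 with the block, -0.16 with it in edgeR, -0.12 and -0.27 with the block and a gene-length or GC trend, and -0.18 and -0.23 with the block once the length offset or the filter was dropped, and Ccl4 became -0.059 with the block and no number 2 libraries. With miR-222-3p-EVs, Ccl3 became 7.0e-05 with the block, 0.059 with it and a gene-length trend, and 0.011 without the length offset in either fit, and Ccl2 became -0.025 with the block and a GC trend and -0.0056 with the block and no filter. For all miR-EVs, Ccl2 became -0.081 with the block, -0.067 with it in edgeR, -0.12 with the block and a GC trend, and -0.050 and -0.088 with the block once the length offset or the filter was dropped. Ccl4 became 0.017 with the block and a gene-length trend, and Ccl3 and Cxcl16 became -0.042 and 0.058 with the block and no number 2 libraries. The cause was not tested.

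Leaving out each library gave these ranges where the sign changed. With miR-142-5p-EVs they were -1.05 to 0.52 for Ccl2, -1.79 to 0.17 for Ccl7, -0.23 to 0.13 for Ccl3, -0.25 to 0.069 for Ccl4, -0.55 to 0.36 for Ccl5, -0.092 to 0.60 for Ccl6, -0.34 to 0.19 for Ccl9, -0.82 to 0.25 for Cxcl2 and -0.64 to 0.54 for Cxcl16. With miR-183-5p-EVs they were -0.90 to 0.63 for Ccl2, -1.24 to 0.25 for Ccl7, -0.0077 to 0.32 for Ccl3, -0.13 to 0.19 for Ccl4, -0.66 to 0.13 for Ccl5, -0.14 to 0.72 for Ccl6, -0.73 to 0.16 for Ccl9 and -0.96 to 0.24 for Cxcl2. With miR-222-3p-EVs they were -0.78 to 0.86 for Ccl2, -1.26 to 0.76 for Ccl7, -0.20 to 0.16 for Ccl3, -0.22 to 0.10 for Ccl4, -0.52 to 0.19 for Ccl5, -0.50 to 0.12 for Ccl9, -0.83 to 0.41 for Cxcl2 and -1.30 to 0.019 for Cxcl16. For all miR-EVs they were -0.37 to 0.68 for Ccl2, -1.06 to 0.42 for Ccl7, -0.14 to 0.19 for Ccl3, -0.20 to 0.12 for Ccl4, -0.33 to 0.23 for Ccl5, -0.37 to 0.16 for Ccl9 and -0.67 to 0.29 for Cxcl2. For Ccl4 in number 3 against 1 the range was -0.19 to 0.013. Depth limits Ccl7, Cxcl16 and Ccl22, whose counts were at most 24 per library.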

Other observations

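The receptor genes of these chemokines, the proteins that act on AU-rich mRNAs and the macrophage markers were described above for the comparison of title numbers. With its levels given here, Cx3cr1 was lower in number 3 than in the others, at 0.904 ± 0.195 TPM against 2.62 ± 1.44 in number 1 and 2.46 ± 0.966 in number 2 (SD, n = 4), with log2 differences of -1.37 ± 0.35 from number 1 and, for number 2 over number 3, 1.56 ± 0.35 (SE, adjusted p = 0.000843 and 2.31e-05, DESeq2). Ackr4, a scavenger of CC chemokines such as Ccl25, was at 0.350 ± 0.106 TPM in number 1, 1.14 ± 0.392 in number 2 and 0.609 ± 0.340 in number 3, and its log2 difference in number 2 against number 1 was 1.85 ± 0.48 (SE, adjusted p = 0.000346, DESeq2). Ackr4 was named after its values were seen.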
